A study of Rattus norvegicus with 23 samples.

Results

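The periodontal ligament of control rats was compared between 43 and 31 days of age, across all genes of a whole-transcript array. The members are the arrays whose source name begins with "Control": 12 of the 23 arrays of the series, from 6 of its 12 animals, with 6 arrays from 3 animals at each age. The animals were male Wistar rats without any further genotype or agent in the labels, and each control animal gave the ligament of its left and its right first mandibular molar. The animal was read from the numeral in the sample title. Animals C1, C2 and C3 were 31 days old and C4, C5 and C6 were 43 days old. The other 11 arrays come from experimental animals of the same strain, sex and ages, whose molars were unopposed according to the series title (E1, E2 and E3 at 31 days, E4, E5 and E7 at 43 days; E2 has a right molar only). They entered the quantile normalization between arrays, the choice of a probe set for each gene and an alternative fit of the spread. Otherwise they are used below only to set the same age difference beside that of the controls.

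The periodontal ligament is the collagen-rich tissue that joins the root cementum to the alveolar bone. Its fibroblasts keep turning over the fibres, and it holds vessels, nerves, bone-forming and bone-resorbing cells and rests of the epithelium that shaped the root. At its crown end it meets the gingiva, a stratified oral epithelium whose cells cornify, that is, they fill with keratin and replace their membrane with a cross-linked protein envelope. On its outer side lies alveolar bone, whose marrow makes red cells, platelets, granulocytes and B cells. Between the ages compared here, the molars of a young rat are in use and the jaw is still growing.

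Levels are log2 values made comparable between arrays by quantile normalization. A difference is the mean at 43 days minus the mean at 31 days, taken over animals after both molars of an animal were averaged, so that n = 3 at each age, and its standard error (SE) comes from limma. Ligament markers were looked up, and all 10 passed the filter on dim genes. That filter removed the genes whose mean over the control arrays lay below a log2 level of 5.80. Since 13624 of 18166 genes passed it, passing does not by itself identify the tissue. Periostin (Postn), a matrix protein typical of ligaments under load, had a mean level of 13.08 at 31 days and 12.87 at 43 days. The tendon transcription factor Scx had 6.90 and 6.86, and Tnmd, a membrane protein of mature tendon, had 6.12 and 6.10.

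Markers of other tissues were measured in every sample. Averaged over 24 oral epithelium genes, the level was lowest in C2's left molar (7.87) and highest in C5's left molar (11.40). Before quantile normalization the control arrays fell into 2 sets by their median level. It was 6.50 to 6.64 for both molars of C1, C3 and C4 and 6.02 to 6.17 for both molars of C2, C5 and C6. Each set held both ages, but unevenly. C4 was the only 43-day animal of the higher set and C2 the only 31-day animal of the lower, so age and set were partly confounded. The molars of an animal were not close copies of each other: their deviations from the mean of their age and side, over 13624 genes, correlated between -0.16 in C2 and 0.48 in C4. Since these are bulk samples, fewer cells of a type and less RNA per cell cannot be told apart.

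A single gene, Kprp, had an adjusted p under 0.05 in limma between the ages, and it was higher at 43 days. Several other settings, given below, did not call it. Kprp encodes keratinocyte proline-rich protein, a component of cornifying epithelium. At 31 days its level in the left and right molar was 7.05 and 5.47 in C1, 5.13 and 6.79 in C2, and 6.21 and 6.15 in C3. At 43 days it was 7.73 and 8.89 in C4, 10.27 and 7.52 in C5, and 10.18 and 6.96 in C6. Every 43-day array lay above every 31-day array except the right molar of C6, which was below the left molar of C1. Over animals, the mean of the younger group was 6.13 ± 0.16 and that of the older group 8.59 ± 0.30 (SD, n = 3 each), a difference of 2.46 ± 0.17 SE with an adjusted p of 0.00745 in limma.

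Kprp was 1 of 13624 genes tested, or 0.00734%. Without adjustment, 858 genes (6.3%) had a p under 0.05, of which 374 were higher (2.75%) and 484 lower (3.55%) at 43 days. The median difference of all genes was 0.00, with 50.5% of genes above 0 and 49.5% below. The animal means of Kprp were closer together than its molars. In limma its adjusted p was 0.816 with the 12 arrays fitted singly and the animal as a replicate block, 0.0937 with the set of arrays as a block (difference 2.43) and 0.584 without the left molars of C2 and C5 (difference 1.72). It was 0.0695 without C1, 0.0765 without C2 and 0.0583 without C6.

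To show the sequence at which the transcript of the 1 called gene starts, the promoter window of Kprp (250 bases before to 50 after the start, RefSeq, build GRCr8, chr2:181129779-181130078, minus strand) is printed 5′ to 3′, with that of Klk6, a peptidase gene described next (chr1:103415266-103415565, plus strand). Capitals mark the letters TGANTCA, to which AP-1 factors bind.
Kprp: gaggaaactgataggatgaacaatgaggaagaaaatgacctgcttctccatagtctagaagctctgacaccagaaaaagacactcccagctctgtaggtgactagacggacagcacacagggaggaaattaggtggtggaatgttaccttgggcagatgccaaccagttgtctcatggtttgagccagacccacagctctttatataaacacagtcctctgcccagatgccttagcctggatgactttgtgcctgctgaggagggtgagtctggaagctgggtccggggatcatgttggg
Klk6: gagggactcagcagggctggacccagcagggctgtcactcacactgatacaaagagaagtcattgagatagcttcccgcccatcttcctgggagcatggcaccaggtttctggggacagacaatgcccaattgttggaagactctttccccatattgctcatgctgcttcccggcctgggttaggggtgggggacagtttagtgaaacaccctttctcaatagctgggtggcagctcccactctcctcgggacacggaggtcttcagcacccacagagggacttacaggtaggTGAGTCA
The Klk6 window holds 1 match, at position 43 with the gene start as 0, and the Kprp window holds 0. Of the 15 genes with the smallest p among those higher at 43 days, 13 had a window in the table and 2 of them, Klk6 and Rptn, held TGANTCA, against 5.49% of the windows of the 11086 tested genes in the table. The motif reads the same on both strands.

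**Figure D1:**
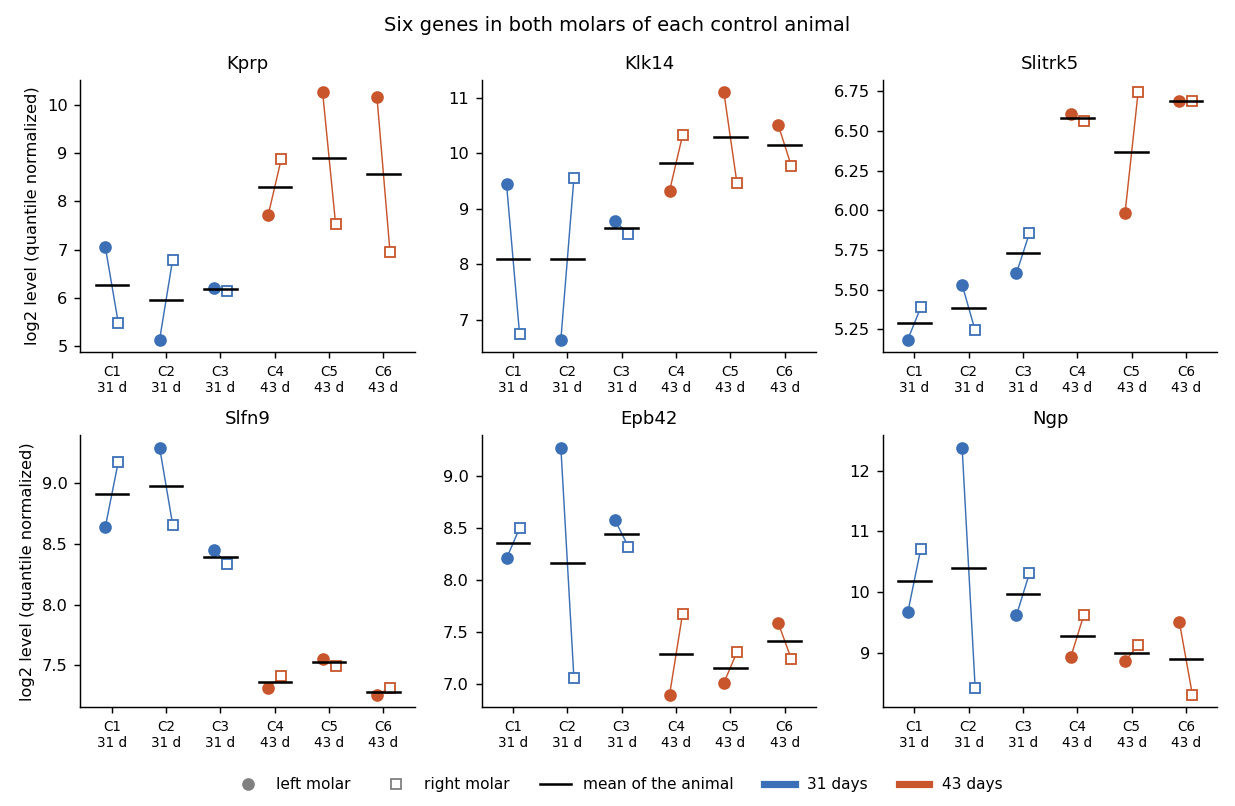
Log2 levels of 6 genes in the left (filled circles) and right (open squares) molars of the 6 control animals, with the mean of each animal as a bar and the ages in colour. The animal means of the ages are apart for all 6 genes (Kprp, Klk14, Slitrk5, Slfn9, Epb42 and Ngp), while the single arrays are apart for Slitrk5 and Slfn9 and overlap for the other 4.

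The rule named 15 genes higher at 43 days, Kprp and the 14 with the next smallest p, and the 14 had adjusted p up to 0.193 in limma, so they are given as values. Their animal means were apart in 15 of 15, a pattern found for 4.84% of all genes in this direction and largely fixed by choosing small p. Klk14, a skin peptidase that sheds cornified cells, had animal means of 8.09, 8.09 and 8.66 at 31 days and 9.82, 10.28 and 10.14 at 43 days, a difference of 1.80 ± 0.19 SE. Its single molars overlapped, since the right molar of C2 at 9.55 was above the left molar of C4 at 9.32.

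Trex2, a DNA exonuclease of keratinocytes, had 7.30, 6.57 and 7.19 at 31 days and 8.61, 9.01 and 9.26 at 43 days (1.94 ± 0.23). The cornified envelope gene Rptn differed by 1.97 ± 0.33, and Alox12b, a lipoxygenase needed for the skin's lipid barrier, by 1.84 ± 0.32. Elovl4, which makes the very long fatty acids of that barrier, differed by 1.03 ± 0.17. Cldn17, a tight junction protein, differed by 1.38 ± 0.21, Lypd5 by 1.66 ± 0.24 and the phospholipase Pla2g4d by 1.14 ± 0.19. Klk6 was apart on all 12 arrays: at 31 days its arrays ran from 6.2 over a median of 6.93 to 7.54, and at 43 days from 7.69 over 8.01 to 9.29 (1.29 ± 0.19).

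Several of these genes are neighbours. Kprp, Lce1e, Crct1 and Rptn lie between Loricrin and S100a11 in the RefSeq gene order of chromosome 2, in the epidermal differentiation complex, which holds genes of the cornified envelope. Klk14, Klk10, Klk9 and Klk6 lie in the kallikrein-related peptidase cluster of chromosome 1. Both loci were looked at after the values of these genes were seen. Of the 16 tested genes between Loricrin and S100a11, 14 were higher at 43 days, with a median difference of 0.71 and 10 at an unadjusted p under 0.05, against 2.75% of all genes in this direction. Without Kprp, Lce1e, Crct1 and Rptn, which drew attention to the locus, 10 of 12 were higher, with a median of 0.50 and 6 higher at such a p. Loricrin, the main envelope protein, differed by 1.26 ± 0.26 and Flg, which bundles keratin filaments, by 1.68 ± 0.49, while Ivl differed by 0.29 ± 0.26 and S100a11 by -0.07 ± 0.18.

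All 11 tested kallikrein genes were higher, with a median of 1.0 and 8 at an unadjusted p under 0.05. Without Klk14, Klk10, Klk9 and Klk6, 7 of 7 were higher, with a median of 0.87 and 4 at such a p. The differences ran from 0.02 for Klk4, an enzyme of enamel maturation, to 1.92 for Klk10. Among them, Klk7, which cleaves the junctions of cornified cells, differed by 1.0 ± 0.24, and Klk5, which activates other kallikreins, by 0.62 ± 0.43. Over all genes the median was 0.00.

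**Figure D2:**
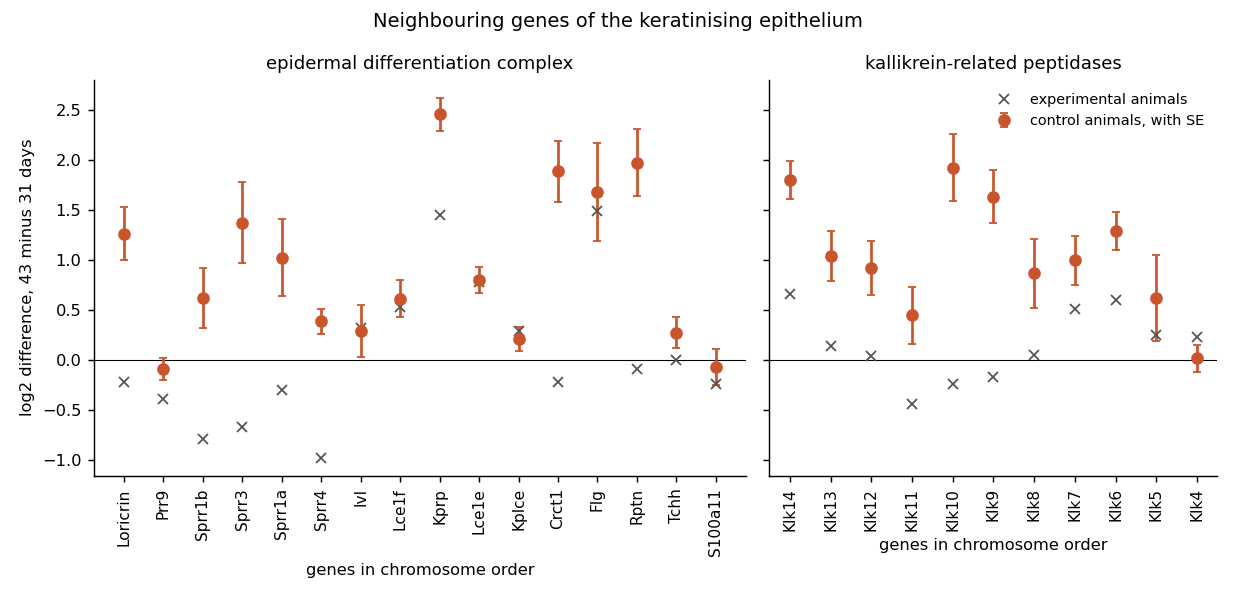
Log2 difference at 43 minus 31 days for the tested genes from Loricrin to S100a11 (left) and from Klk14 to Klk4 (right), in chromosome order; circles with SE bars are control animals and crosses are experimental animals. In controls 14 of 16 and 11 of 11 genes lie above 0, and in experimental animals 6 of 16 and 8 of 11.

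General markers of oral epithelium were also higher, without passing the test. All 24 tested oral epithelium genes, chiefly keratins and desmosome proteins, were higher at 43 days, against 50.5% of all genes. Their median was 0.63, and 3 had an unadjusted p under 0.05, against 2.75% of all genes in this direction. These 3 were Ppl, an envelope protein (0.96 ± 0.29), Sprr1a (1.02 ± 0.39) and Krt13, a keratin of non-cornifying mucosa (1.12 ± 0.47). Sprr1a, Sprr1b and Ivl of this list were already counted between Loricrin and S100a11. The mean level of the list was 9.97, 8.83 and 9.60 in C1, C2 and C3 and 9.46, 10.60 and 10.45 in C4, C5 and C6, so the ages overlapped. C4 at 43 days had a lower epithelium mean than C1 and C3 at 31 days. Krt14, of basal epithelium, differed by 0.49, and Tp63, its transcription factor, by 0.61.

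Animals and arrays weighed on this list. Within the higher set of arrays (C4 against C1 and C3) the epithelium median was -0.23, and within the lower set (C5 and C6 against C2) it was 1.58. Without the left molars of C2 and C5 it was 0.12, with 19 of 24 higher, and without C2 it was 0.36. With the animal's mean of the epithelium list as a covariate, the difference of Kprp was 2.21, with an adjusted p of 0.00831 in limma.

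Genes of blood cell lineages lay lower at 43 days. The lists of red cell precursors, granulocytes, B and plasma cells, and megakaryocytes and platelets together had 54 tested genes. Of these, 53 were lower, 40 at an unadjusted p under 0.05, and in 33 the animal means were apart, against 3.55% and 5.59% of all genes in this direction. None of the 54 passed the adjusted threshold in limma. The lists were chosen with earlier results of these data known, and these 4 had the lowest medians of all lists. Macrophage genes (17 of 20 lower, 4 at an unadjusted p under 0.05) are outside this count. So are T and NK cell genes (10 of 10 lower, 2 at such a p).

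Red cell genes had the lowest median of any list, -0.80, with 15 of 15 lower, 12 of them at an unadjusted p under 0.05. Epb42, a protein of the red cell membrane skeleton, had lowest, median and highest array levels of 7.06, 8.41 and 9.27 at 31 days and 6.90, 7.28 and 7.68 at 43 days. Its animal means were 8.35, 8.16 and 8.45 against 7.29, 7.16 and 7.42, a difference of -1.03 ± 0.12 SE (adjusted p 0.0965 in limma). In C2 the left molar was at 9.27 and the right at 7.06, which overlaps the older animals. Sptb, the beta spectrin of the same membrane skeleton, differed by -1.06 ± 0.15.

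Other red cell genes gave like values. Slc4a1, the band 3 anion exchanger, differed by -1.06, Hemgn, a nuclear protein of red cell precursors, by -1.08, Ahsp, the chaperone of alpha globin, by -1.02, and Klf1, a transcription factor that switches on globin genes, by -0.60. The globins themselves differed by -0.74 (Hba-a1) and -0.44 (Hbb-b1), with overlapping animals. Rhag, which carries the Rh complex, was apart on all 12 arrays, from 7.0 to 8.89 at 31 days and from 6.26 to 6.69 at 43 days. Among the 15 named lower genes outside the list were Tfdp2 (-1.02 ± 0.12), a partner of E2F factors, and Mkrn1 (-1.02 ± 0.17), Rbm38 (-0.97 ± 0.16) and Riok3 (-0.62 ± 0.11). The named lower genes also held Relt, a receptor of the tumour necrosis factor family (-1.07), Gda, the guanine deaminase (-0.86), Bcas2, a splicing factor (-0.85), and Adissp (-0.77).

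Granulocyte genes had a median of -0.66 (18 of 18 lower), with 13 at an unadjusted p under 0.05. Ngp, a protein of neutrophil granules, had array levels of 8.43, 9.99 and 12.38 (lowest, median, highest) at 31 days and 8.31, 9.03 and 9.63 at 43 days, with animal means of 10.19, 10.40 and 9.97 against 9.28, 9.0 and 8.91 (-1.13 ± 0.15). Defa5, an alpha-defensin, differed by -1.67 ± 0.26, Fcnb, a ficolin of granulocytes, by -1.26 ± 0.20, and Mpo, the myeloperoxidase of early granulocytes, by -1.11. The antimicrobial peptide Camp differed by -0.94 and the granule proteases Prtn3, Ctsg and Elane by -0.60, -0.66 and -0.53. Genes of mature neutrophils included S100a9 at -0.69 and Cxcr2 at -0.14.

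B and plasma cell genes had a median of -0.61 (12 of 13 lower), with 9 at an unadjusted p under 0.05. Both chains of the B cell receptor complex, Cd79a and Cd79b, differed by -0.90, and Igll1, a surrogate light chain of B cell precursors, by -0.65. Jchain, which joins secreted immunoglobulins, differed by -0.83, with the left molar of C2 at 9.48 and all other control arrays between 5.82 and 7.73. Xbp1, which plasma cells share with other secretory cells, was the 1 gene above 0, at 0.22. Megakaryocyte and platelet genes had a median of -0.38 (8 of 8 lower), with 6 at such a p. Their largest difference was that of Pf4, a chemokine of platelet granules, from 7.87 to 9.42 on the arrays at 31 days and from 6.77 to 7.77 at 43 days (-1.21 ± 0.27).

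Macrophage genes lay closer to 0, with a median of -0.29, 17 of 20 lower and 4 at an unadjusted p under 0.05, and the coagulation factor gene F13a1 had the smallest p of them (-0.65 ± 0.12). The macrophage median was 0.11 within the higher set of arrays and -0.61 within the lower. T and NK cell genes had a median of -0.19 (10 of 10 lower), with 2 at such a p, among them Nkg7, of cytotoxic granules (-0.98 ± 0.25). Ptprc, the CD45 antigen of all white cells, was apart on all 12 arrays, from 8.71 to 9.92 at 31 days and from 7.96 to 8.59 at 43 days (-0.79 ± 0.17).

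The left molar of C2 had the highest control mean for red cell (10.21), granulocyte (9.70) and B cell genes (9.11), while its right molar stood at 8.28, 7.34 and 7.34. Without the left molars of C2 and C5 the medians were -0.41 for red cell genes (1 at an unadjusted p under 0.05), -0.26 for granulocyte genes (3 of 18 higher), -0.20 for B cell genes and -0.40 for platelet genes (6 at such a p). Within the higher and the lower set of arrays the red cell median was -0.86 and -0.76, the granulocyte median -0.28 and -1.04 and the B cell median -0.24 and -0.95. With the epithelium mean of the animal as a covariate these medians were -0.82, -0.38 and -0.37.

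**Figure D3:**
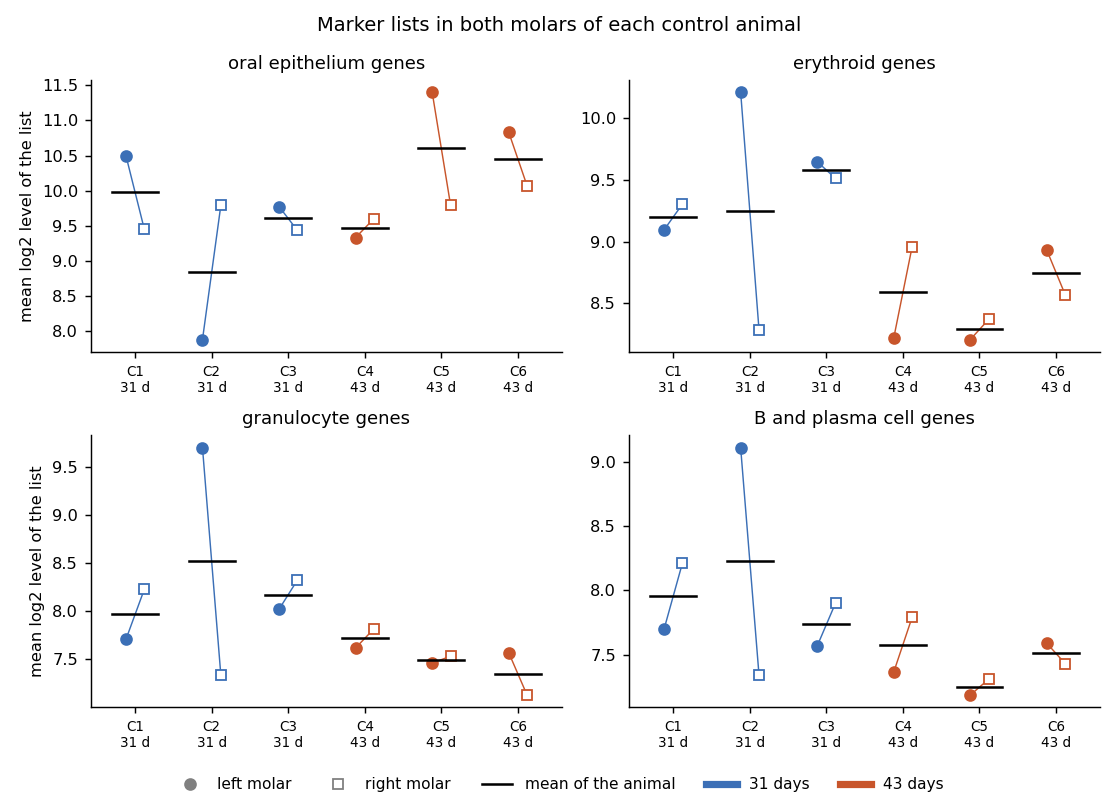
Mean log2 level of 4 marker lists in the left (filled circles) and right (open squares) molars of the control animals, with the mean of each animal as a bar. Red cell, granulocyte and B cell means of the animals are lower at 43 days without overlap, the epithelium means overlap, and the left molar of C2 is highest for the 3 blood lists and lowest for epithelium.

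Letters of binding sites were looked up in the promoter windows of the blood genes, since these genes differed together. The windows of Sptb (chr6:101170229-101170528, minus strand) and Ngp (chr8:119272355-119272654, plus strand), both RefSeq, build GRCr8, are shown as those that hold a match. Capitals mark AGATAA, which GATA factors of red cell precursors bind, in Sptb, and TTGCNNAA, a site of C/EBP factors of granulocytes, in Ngp. Slfn9 (chr10:68420013-68420312, minus strand), described next, holds no AGATAA and is all in lower case.
Sptb: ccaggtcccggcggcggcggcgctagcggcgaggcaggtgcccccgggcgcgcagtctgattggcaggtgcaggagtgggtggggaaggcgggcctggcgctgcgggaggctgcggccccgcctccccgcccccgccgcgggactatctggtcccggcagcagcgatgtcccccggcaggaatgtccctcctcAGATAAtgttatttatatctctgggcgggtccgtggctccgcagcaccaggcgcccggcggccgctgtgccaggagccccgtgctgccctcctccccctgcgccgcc
Ngp: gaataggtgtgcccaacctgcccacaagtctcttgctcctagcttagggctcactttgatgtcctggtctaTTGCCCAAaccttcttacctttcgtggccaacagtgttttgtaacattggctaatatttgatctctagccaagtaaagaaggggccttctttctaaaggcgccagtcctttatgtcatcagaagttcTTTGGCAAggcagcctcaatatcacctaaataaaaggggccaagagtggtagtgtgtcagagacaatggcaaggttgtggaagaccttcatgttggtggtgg
Slfn9: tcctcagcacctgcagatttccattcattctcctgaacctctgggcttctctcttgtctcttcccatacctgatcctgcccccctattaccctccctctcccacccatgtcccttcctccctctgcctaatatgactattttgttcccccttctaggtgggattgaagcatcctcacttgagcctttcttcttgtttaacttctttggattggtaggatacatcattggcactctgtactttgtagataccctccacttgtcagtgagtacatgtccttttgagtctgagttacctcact
Both strands were searched, each motif by itself. AGATAA stood at position -57 of Sptb and in 3 of 13 windows of the red cell list, Sptb, Rhd and Fech, against 6.74% of the windows of all tested genes. TTGCNNAA stood at positions -179 and -52 of Ngp and in 4 of 14 windows of the granulocyte list, Ngp, Lcn2, Fcnb and Mmp8, against 8.72%. Neither motif kept to its lineage: TTGCNNAA also stood in 3 of 13 windows of the genes named as higher (Trex2, Slitrk5 and Cldn17), and AGATAA in 2 of 14 windows of the granulocyte list (S100a9 and Mmp8). A match is a description of letters in this window and no evidence of binding.

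Some genes separated the ages on every array. There were 74 of them (0.543% of genes), 32 higher (0.235%) and 42 lower (0.308%) at 43 days, counted after the values had been seen. The widest gap belonged to Slfn9, a schlafen gene of a family known from immune cells. Its levels at 31 days were 8.64 and 9.18 in C1, 9.30 and 8.66 in C2, and 8.45 and 8.34 in C3 (left and right). At 43 days they were 7.31 and 7.41 in C4, 7.55 and 7.5 in C5, and 7.25 and 7.31 in C6.

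The lowest young and the highest old array of Slfn9 were thus 0.79 apart, and the difference was -1.37 ± 0.17 SE (adjusted p 0.1 in limma). Without the left molars of C2 and C5 it was -1.27. Its relatives overlapped between ages, with Slfn2 at -0.28, Slfn4 at -0.36 and Slfn14 at -0.34. In the experimental animals Slfn9 ran from 7.61 to 9.18 at 31 days and from 7.21 to 8.63 at 43 days.

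Of the 30 named genes, 4 separated the ages on every array: Klk6, Slfn9, Slitrk5 and Ms4a3. Slitrk5, a membrane protein known from neurons, ran from 5.19 to 5.86 at 31 days and from 5.99 to 6.74 at 43 days (1.08 ± 0.15). Ms4a3, a gene of granulocyte precursors, ran from 5.88 to 8.23 at 31 days and from 5.41 to 5.87 at 43 days (-1.05 ± 0.17). The mean of Slitrk5 at 31 days (5.47), that of Lce1e at 31 days (5.58) and that of Ms4a3 at 43 days (5.61) lay below the level of the filter on dim genes. Ascl3, a transcription factor known from duct cells of salivary glands, had a gap of 0.21 between the ages and a difference of 0.78 ± 0.15.

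Genes of the ligament itself gave small differences. Over all genes 49.5% were lower, and 3.55% were lower at an unadjusted p under 0.05. The collagen list, which holds fibrillar collagens and the enzymes that process them, had a median of -0.15 (28 of 35 lower), with 1 at an unadjusted p under 0.05, Adamts14, which trims procollagen (-0.32 ± 0.13). Its direction turned with the set of arrays: within the higher set the median was 0.29 with 34 of 35 higher, and within the lower set -0.29 with 32 of 35 lower. With each array centred on its median instead it was 0.00 with 19 of 35 higher, and without C5 it was 0.06. Ligament and tendon fibroblast genes had a median of -0.05 (11 of 18 lower), with 1 at such a p, S100a4, a calcium-binding protein of motile cells (-0.72 ± 0.25), and their median was 0.32 within the higher set and -0.29 within the lower. Periostin differed by -0.21 ± 0.19.

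Bone lists had no settled direction. Within the higher and the lower set of arrays the osteoblast median was 0.28 and -0.18 and the osteoclast median 0.24 and -0.32. The list of osteoblast, osteocyte and cementoblast genes had a median of -0.03, with 4 of 33 at an unadjusted p under 0.05, against 6.3% of all genes. By direction, 2.75% of all genes were higher and 3.55% lower at such a p, and 49.5% were below 0. Dlx5, a factor of osteoblast formation (0.32 ± 0.13), and Fgf23, a phosphate hormone of osteocytes (0.48 ± 0.18), were higher. Sost, an osteocyte inhibitor of Wnt signalling (-0.28 ± 0.10), and Col11a2, a minor fibrillar collagen (-0.44 ± 0.16), were lower. Osteoclast genes had a median of -0.08 (10 of 12 lower), with 1 at such a p, the carbonic anhydrase Car2 (-0.60 ± 0.18), which red cells also express. Bone turnover signals, which are ligands and receptors that steer bone cells, had a median of -0.21 (8 of 13 lower), with 2 lower at such a p. Cell cycle genes had a median of -0.07 (34 of 45 lower), with 1 at such a p.

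In the TGF-beta and BMP list (median -0.01, 41 genes) the ligand Tgfb3 differed by -0.44 ± 0.12 and the ligand Bmp7 by 0.46 ± 0.16. Matrix proteases and their inhibitors had a median of -0.13 (20 of 29 lower), with 1 at an unadjusted p under 0.05 in each direction, and the higher of these was Plat, the tissue plasminogen activator (0.72 ± 0.18). Their median was 0.29 within the higher set of arrays and -0.29 within the lower. Wnt genes had a median of 0.01, with 1 of 50 at an unadjusted p under 0.05 in each direction. Of all genes, 2.75% were higher and 3.55% lower at such a p, and 49.5% were below 0. Interferon-induced genes had a median of -0.09 (19 of 21 lower), with 3 at such a p, Rsad2 (-0.92 ± 0.24), Irf7 (-0.51 ± 0.20) and Ifit3 (-0.46 ± 0.19). Without the left molars of C2 and C5 the interferon median was 0.02.

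Clock genes lay slightly higher at 43 days, with a median of 0.18, 15 of 17 higher and 3 at an unadjusted p under 0.05, against 2.75% of all genes in this direction. The hour of tissue collection is not given in the labels. Per2, a repressor of the clock, differed by 0.51 ± 0.19, Nr1d1, a nuclear receptor of its second loop, by 0.35 ± 0.12 and Tef, an output factor, by 0.37 ± 0.16. The 2 genes below 0 were Npas2 (-0.245 ± 0.126) and Bmal1 (-0.08 ± 0.11). The list means were 8.13, 8.20 and 8.35 in C1, C2 and C3 and 8.39, 8.44 and 8.47 in C4, C5 and C6. Per1 had the largest difference of the list, with a wide SE (0.78 ± 0.59) and overlapping animals. It was at 9.33 and 9.32 in the molars of C3 and 9.34 and 9.5 in those of C4, against 6.87 to 8.39 on the other control arrays.

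**Figure D4:**
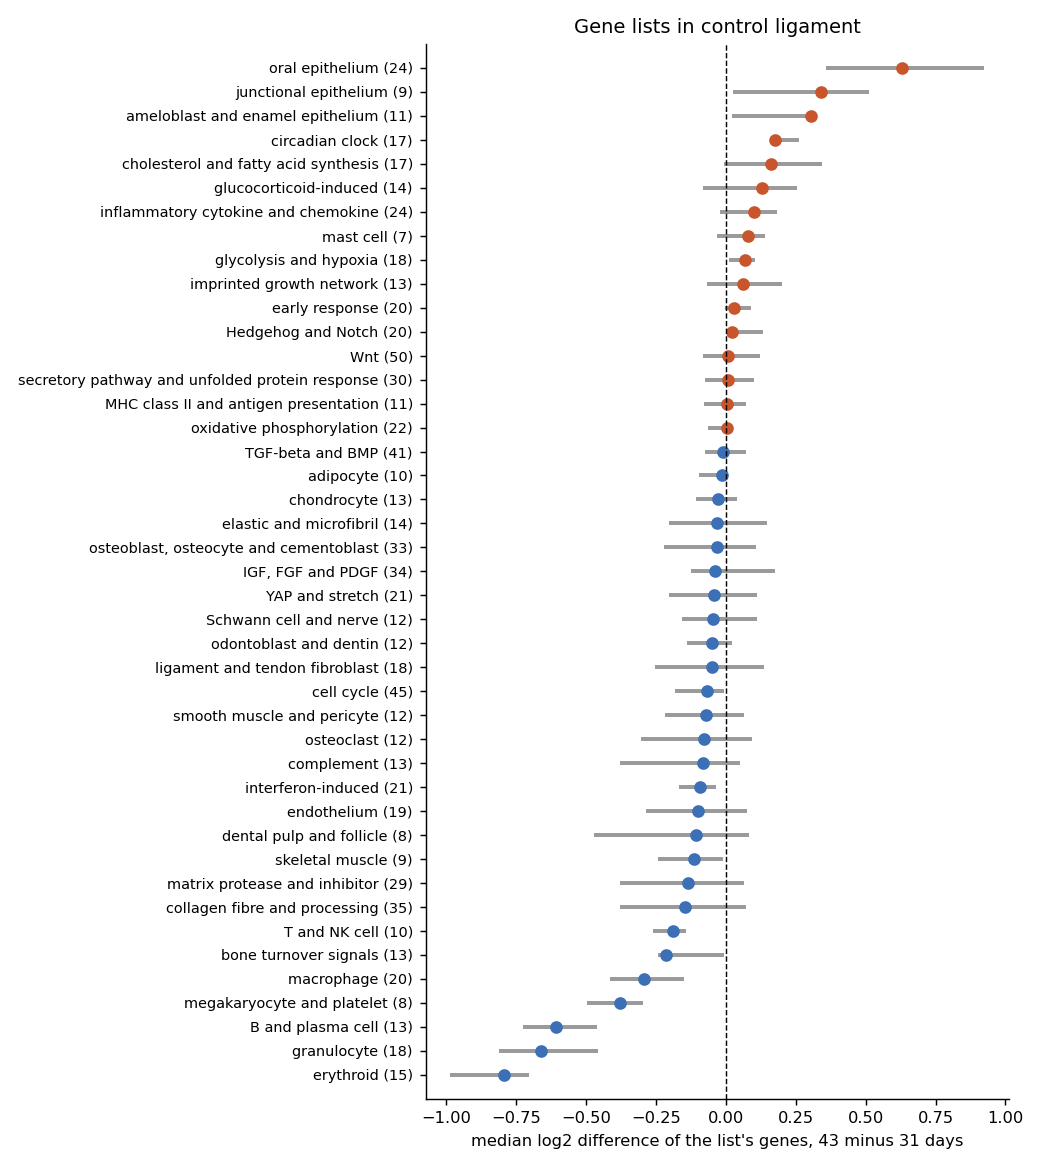
Median log2 difference at 43 minus 31 days of the genes of each list in control animals, with the number of tested genes in brackets; grey bars span the medians when each animal is left out in turn, and the dashed line is the median of all genes. Red cell (-0.80), granulocyte (-0.66) and B cell lists (-0.61) lie lowest and oral epithelium (0.63) highest.

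Both molars gave the same direction for the genes named from their mean. All 15 higher genes were higher on the right and on the left, with medians of 1.42 and 1.92, and all 15 lower genes were lower on both sides, with medians of -0.67 and -1.41. Left and right together made the mean that chose these genes, so this is a description. Over all genes, 47.9% were above 0 and 52.1% below on the right, and 52.1% above and 47.9% below on the left. On right molars alone 0 genes passed (0%), with 428 (3.14%) at an unadjusted p under 0.05 and a smallest adjusted p of 0.562 in limma. On left molars alone 0 genes passed (0%), with 479 (3.52%) and a smallest adjusted p of 0.921.

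By side, the red cell median was -0.41 on the right and -1.30 on the left, the granulocyte median -0.48 and -0.83, the B cell median -0.34 and -0.78, and the oral epithelium median 0.23 and 0.98. Kprp differed by 1.65 on the right and 3.26 on the left. The test of the age difference on the right minus that on the left, over the 6 animals, called 0 genes (0%), with 128 (0.94%) at an unadjusted p under 0.05 and a smallest adjusted p of 0.999 in limma.

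The experimental animals, which share no array with the controls, gave other values for the same ages. There 0 genes passed (0%), with 1674 (12.3%) at an unadjusted p under 0.05 and a smallest adjusted p of 0.131 in limma. All their 31-day arrays belonged to the set of higher median and all their 43-day arrays to the lower, so age and set cannot be told apart in them. Kprp differed by 1.46 ± 1.01 SE, with arrays from 5.88 to 9.60 at 31 days and from 4.92 to 10.92 at 43 days, which overlap widely. Of the 15 genes named as higher in controls, 10 were higher in experimental animals, with a median of 0.26, and of the 15 lower genes, 8 were lower, with a median of -0.07. Over all genes 57.5% were above 0 there and 42.5% below.

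The blood lists had medians at or above 0 in the experimental animals. These were 0.00 for red cell, 0.40 for granulocyte, 0.22 for B cell and 0.21 for platelet genes. Ngp differed by 1.19 ± 0.51 there against -1.13 ± 0.15 in controls, Defa5 by 1.08 ± 0.47 against -1.67 ± 0.26, and Jchain by 1.01 ± 0.41 against -0.83 ± 0.24. The epithelium median was 0.03, and the median over the genes between Loricrin and S100a11 was -0.15.

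The difference between conditions was tested directly, as the age difference in experimental minus that in control animals. It called 0 genes (0%), with 604 (4.43%) at an unadjusted p under 0.05, of which 471 were above 0 (3.46%) and 133 below (0.976%), and a smallest adjusted p of 0.957 in limma. Of the 54 blood genes, 25 had an unadjusted p under 0.05 above 0 and 0 below. These values contain the control difference already given and are no separate support for it. They also contain any difference between the sets of arrays, which cannot be told apart from age in the experimental animals. Granulocyte genes had a median of 1.01 in this contrast, with 12 of 18 at such a p. Clock genes went both ways, with 3 of 17 above 0 and 3 below 0 at such a p. Among those below 0 was Ciart, a clock repressor (-0.61 ± 0.11), at 0.18 in controls and -0.43 in experimental animals.

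**Figure D5:**
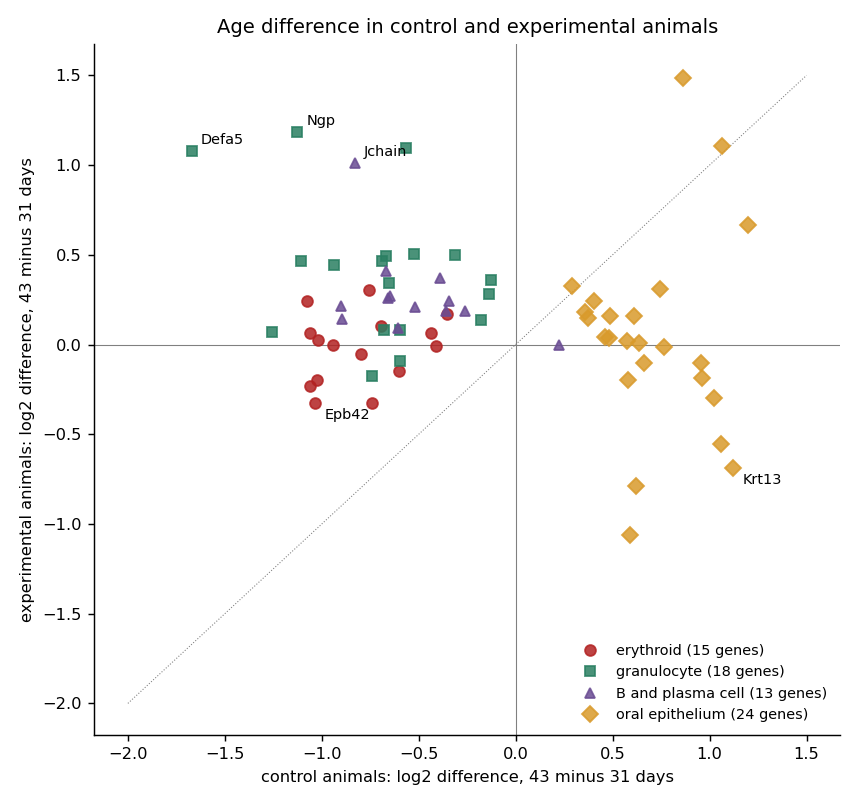
Log2 difference at 43 minus 31 days in control animals (horizontal axis) against experimental animals (vertical axis), a point for each gene of 4 lists; the dotted line marks equal values. Red cell, granulocyte and B cell genes lie left of 0 in controls, save 1 B cell gene, and 8 of 15, 16 of 18 and 12 of 13 lie above 0 in experimental animals.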

How the data were processed

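Ligament RNA of 23 samples was hybridised to whole-transcript Affymetrix arrays, and the deposited values are log2 intensities per probe set, for which the submitters' processing notes name RMA and Partek; versions and settings are not given in the sources used here. Arrays carry no read depth, so the number of animals limits the precision. From the 36685 probe sets, 18511 had 1 gene symbol, 575 several and 17599 none. A gene was taken as its probe set with the highest mean, giving 18166 genes. Gene identifiers were matched to RefSeq for 18394 probe sets, which changed 0 symbols.

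All 23 arrays were quantile normalized together, molars were averaged per animal, and genes below the 25th percentile of the control mean were removed. Ages were compared with limma 3.58.1 (R 4.3.3, statmod 1.5.0) with Benjamini-Hochberg adjustment at 0.05, and the code was checked on simulated data. An exact permutation test of 3 against 3 animals cannot go below 0.1, so none was used. Title numerals identify an animal; nothing else in the labels does. The p-values rest on these animals only, and limma draws the spread of a gene partly from that of all genes tested.

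Per direction, 15 genes were named: those past the threshold, made up by the smallest unadjusted p, plus 4 per list; placeholder symbols and olfactory, vomeronasal and taste receptors were passed over. The comparison, the 44 gene lists and the naming rule were chosen with earlier results of these data known. The salivary gland list had 0 genes tested. Alternatives included other scalings and filters, the set of arrays as a block, single arrays with the animal as a block, and leaving out animals. Promoter windows and motif matches used RefSeq, build GRCr8.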

Additional observations from a re-analysis of the deposited data

How the results depend on the processing

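The count of 1 called gene between ages in controls became 16 on the values as deposited, 955 within the lower set of arrays and 0 within the higher set, where the age with a lone animal is assumed to vary like the other. It was 0 with the set as a block, 0 when all 12 animals shared the spread, 0 without the left molars of C2 and C5, 0 over all probe sets without a filter (an alternative chosen after seeing the data), and 0 to 57 when an animal was left out. Without C4 it was 57, without C3 it was 3, and without C1 or C2 it was 0. With the 12 arrays and the animal as a replicate block (correlation between molars 0.234) it was 0, the smallest adjusted p being 0.0667 in limma. Kprp itself differed by 2.30 to 2.60 without any 1 animal and lost its call without C1 (adjusted p 0.0695 in limma), C2 (0.0765) or C6 (0.0583).

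The values as deposited gave 4 genes on right molars, where leaving out an animal gave 0 to 1, and 4349 genes in experimental animals, 4338 of them lower. Experimental minus control gave 0 to 1 when an animal was left out. As deposited, the median of all genes in controls was -0.12, and centred on array medians it was 0.08.

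Over 1175 pairs of a named gene and a setting, 7 reversed. Within the higher set these were Evpl (-0.11), Col5a3 (0.041), P3h4 (0.19), Loxl2 (0.42), Postn (0.16) and Hk2 (-0.078), and without the left molars of C2 and C5 Adamts14 (0.068). Settings that changed only the filter or the model of the spread left each difference as it was. Their pairs, which are among the 1175, could not reverse. Of 510 pairs with an animal left out, 0 reversed. A gene whose animal means are apart cannot reverse when an animal is left out, so for such genes this was fixed in advance. The animal means were apart in 15 of 15 genes named as higher and 15 of 15 named as lower. The cause of the 7 reversals was not tested.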

Other observations

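Endothelium, Schwann cell and skeletal muscle genes, which mark the vessels, nerves and neighbouring muscle of the ligament, had medians of -0.10, -0.05 and -0.12 between the ages in controls, with 0 of 19, 0 of 12 and 0 of 9 genes at an unadjusted p under 0.05. Within the higher and the lower set of arrays the endothelium median was 0.0029 and -0.55 and the Schwann cell median 0.017 and -0.10. Genes of cholesterol and fatty acid synthesis had a median of 0.16, with 14 of 17 higher and 1 at such a p, and it was -0.094 within the higher set of arrays and 0.48 within the lower. Junctional epithelium genes, of the cuff that attaches the gingiva to the tooth, had a median of 0.34, with 8 of 9 higher and 0 at such a p. It was 0.0089 on the right and 0.62 on the left, -0.27 within the higher set and 0.99 within the lower, and -0.028 without the left molars of C2 and C5. For all genes, 50.5% were higher, and 6.3% had an unadjusted p under 0.05 in either direction. The cytokine gene Il1a differed by 1.15 ± 0.46, with overlapping animals.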
